A study of Rattus norvegicus with 4 samples.

Results

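The BCL2 family was followed in NR8383, a rat macrophage line started from lung lavage, through 10 genes that stand for its survival and death arms. The survival members were Bcl2, Bcl2l1, Mcl1 and Bcl2a1, the pore-forming effectors were Bax and Bak1, and the BH3-only members were Bid, Bcl2l11, Bbc3 and Pmaip1. Members were found as the gene probes whose accession maps to these rat RefSeq symbols, which gave 16 probes for the 10 genes, of 21109 named probes and 16526 named genes with a value on every array. The measured cells had spent 4 h with zinc iron oxide, the zinc ferrite particle ZnFe2O4 (NRCWE021), at 17 µg/mL, and were at a labelled 20 passages. Their RNA was read on 1-colour arrays, 1 array for each of 4 biological replicates. The line grows partly attached and partly floating, and the labels do not say whether both fractions were collected. The series sets exposed against unexposed cells; the unexposed arrays were not analysed here, and nothing here says how exposure changed a gene.

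BCL2 proteins decide at the outer mitochondrial membrane whether a cell starts apoptosis. Bax and Bak1 open pores in that membrane and let cytochrome c out, the survival proteins hold them back, and the BH3-only proteins carry stress signals by binding the survival proteins or by activating Bax and Bak1 directly. Macrophages are long-lived phagocytes in which Mcl1, whose protein is turned over quickly, and Bcl2a1, a target of NF-kB, are known survival genes, while BCL2 itself is known best from lymphocytes.

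To show the DNA next to genes on either side of the detection result below, the 250 bases before the RefSeq start (GRCr8) are printed for Mcl1, which gave signal above every limit on all arrays, and for Bcl2 and Pmaip1, which were not well above background on replicates 1 and 4. Capitals mark matches on either strand to the GC box (GGGCGG), the CCAAT box (CCAAT), the TATA box (TATAAA), the CRE core (TGACG), the metal response element core (TGCACNC or TGCGCNC) that the zinc sensor MTF1 reads, and the NF-kB site. The windows are chr2:185907918-185908167 on the plus strand for Mcl1, chr13:23366901-23367150 on the minus strand for Bcl2 and chr18:62255720-62255969 on the plus strand for Pmaip1.
Mcl1: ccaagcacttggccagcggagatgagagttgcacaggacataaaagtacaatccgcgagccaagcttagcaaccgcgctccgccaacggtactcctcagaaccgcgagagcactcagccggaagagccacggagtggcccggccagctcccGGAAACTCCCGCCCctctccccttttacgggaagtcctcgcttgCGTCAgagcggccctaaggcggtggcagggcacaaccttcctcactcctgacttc
Bcl2: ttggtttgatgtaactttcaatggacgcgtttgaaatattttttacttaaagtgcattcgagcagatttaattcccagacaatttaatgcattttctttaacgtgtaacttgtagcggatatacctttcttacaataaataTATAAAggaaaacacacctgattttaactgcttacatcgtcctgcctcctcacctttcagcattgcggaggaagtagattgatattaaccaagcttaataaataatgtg
Pmaip1: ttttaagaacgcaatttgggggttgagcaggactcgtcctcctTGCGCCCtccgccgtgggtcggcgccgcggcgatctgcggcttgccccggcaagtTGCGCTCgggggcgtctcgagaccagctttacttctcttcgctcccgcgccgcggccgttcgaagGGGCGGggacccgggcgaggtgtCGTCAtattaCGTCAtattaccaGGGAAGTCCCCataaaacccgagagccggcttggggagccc

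The Mcl1 window held a GC box that overlaps an NF-kB match, and a CRE core. The Pmaip1 window held a GC box, 2 CRE cores, 2 metal response element cores and 3 NF-kB matches that all overlap each other. The Bcl2 window held a TATA box match 109 bases before the start and no other motif of the 6 searched. The GC content of the windows was 62.0% for Mcl1, 33.6% for Bcl2 and 64.8% for Pmaip1, beside a median of 51.2% over 33469 RefSeq windows of that length. RefSeq windows matched 8 of the 10 members, with 11 windows in all, 4 of them for Bcl2l1. A gene was counted where any of its windows held the motif, whereas the shares are of single windows, so the 2 are not like measures. A GC box was found in windows of 5 of these 8 genes and in 30.5% of all windows, a CRE core in 3 genes and 18.2% of windows, and a metal response element core in 3 genes (Bcl2l1, Bcl2l11 and Pmaip1) and 20.6% of windows. NF-kB matches were found in 2 genes and 6.33% of windows, CCAAT boxes in 2 genes and 34.0%, and a TATA box in 1 gene and 12.9%. These matches are letters in a window, not sites shown to be bound.

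The arrays differed in how bright dim probes were, which decides what can be said of the dim members. Values below are processed signals in intensity units, background-subtracted by the scanner software, and a probe counted as detected where the software marked it as well above background. The median gene spot had a signal of 13.5, 542, 133 and 7.37 for replicates 1 to 4. There were 10 spike-in probes, which read viral control RNA added to each sample, and for 3 of them most spots stayed at background on both replicate 1 and replicate 4. Their medians there lay between 3.49 and 8.69 on replicate 1 and between 3.75 and 5.95 on replicate 4, but between 554 and 1229 on replicate 2 and between 115 and 278 on replicate 3. The 308 negative control spots, a hairpin designed to bind no sample RNA, stayed low, with medians of 3.45, 23.0, 12.9 and 3.34 for replicates 1 to 4. A second limit was therefore set after these controls were seen, namely the 95th percentile of the spots of those 3 spike-ins on the same array. This spike-in limit was 15.3, 1498, 329.8 and 10.7 for replicates 1 to 4. It passed fewer genes than the software's mark on replicates 2 and 3 and slightly more on replicates 1 and 4. No member spot was saturated or marked as an outlier.

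The cells carried macrophage transcripts. Of 9 measured genes on a list for alveolar macrophages, 8 were detected on replicates 1 and 4, beside 45.9% of all named genes. Cd68, Spi1 and Ptprc were among the 8, while Marco was not. Csf1r was listed but not measured, and Ptprc is not confined to macrophages. Replicates 1 and 4 both also detected 2 of 5 neutrophil markers (Camp and S100a8), 0 of 4 T and B cell markers, 0 of 4 epithelial markers and 0 of 4 fibroblast markers. Cd3d, a T cell marker, was detected on replicate 1, at 44.3, and not on replicate 4, at 9.26. Other markers were detected on both replicates 2 and 3 and on neither 1 nor 4, as were 27.7% of all genes. These were 4 of 4 fibroblast, 2 of 4 epithelial, 2 of 4 T and B cell, 2 of 5 neutrophil and 1 of 9 macrophage markers. Whether Camp and S100a8 bear on Mcl1 or Bcl2a1, which neutrophils also use, was not tested.

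Of the 10 members, 7 were detected on all 4 arrays, where 42.4% of all named genes were. These were the survival genes Mcl1 and Bcl2a1, the effectors Bax and Bak1, and the BH3-only genes Bid, Bcl2l11 and Bbc3. The same 7 were the members detected on both replicate 1 and replicate 4, beside 45.9% of all genes. Bcl2 and Pmaip1 were seen on replicates 2 and 3 alone, 2 of 10 members beside 27.7% of all genes, and Bcl2l1 was detected on replicate 1 and not on replicate 4. Single arrays gave 8 members on replicate 1 (52.2% of all genes), 10 on replicate 2 (91.5%), 10 on replicate 3 (75.3%) and 7 on replicate 4 (46.2%). Replicate 2 thus gave a share close to that of all genes. With the spike-in limit, Bax, Bak1 and Mcl1 passed on all 4 arrays, 3 of 10 members beside 12.0% of all genes. Array by array the limit passed 8 members on replicate 1 (53.8% of all genes), 3 on replicate 2 (14.3%), 4 on replicate 3 (23.3%) and 8 on replicate 4 (50.8%). Bax, Bak1 and Mcl1, 3 of 10, were also the members above the dimmest spike-in plus 3 SD of its spots on all 4 arrays, beside 15.4% of all genes. The RNA was taken from many cells together, so fewer cells with a transcript and less of it per cell cannot be told apart.

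**Figure D1:**
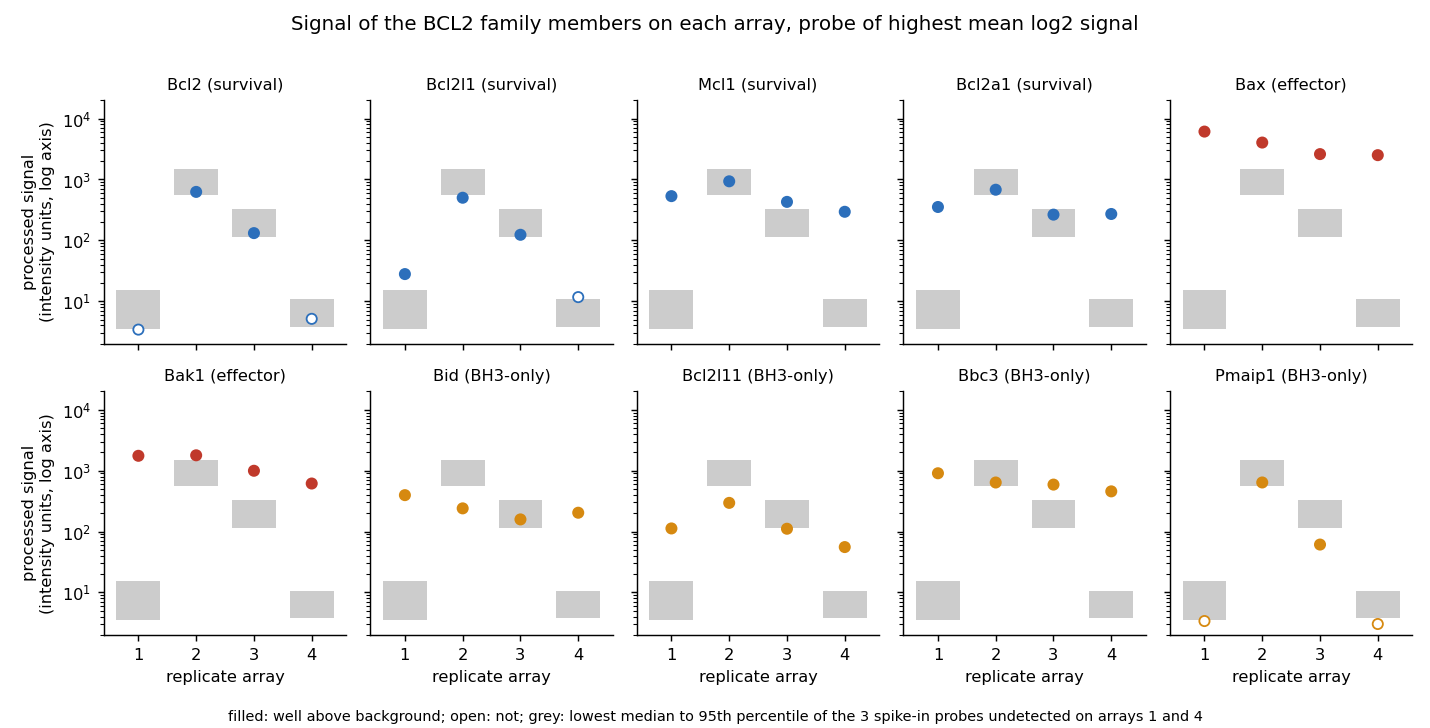
Processed signal (intensity units, log axis) of the probe of highest mean log2 signal of each member on the 4 replicate arrays; filled points were well above background, open points were not, and grey boxes run from the lowest median to the 95th percentile of the 3 dim spike-in probes. Bax and Bak1 lie above the boxes on all 4 arrays, while Bcl2 and Pmaip1 lie above the box on none.

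Mcl1, the survival gene whose protein is short-lived, was read by 2 probes, and both were detected on all 4 arrays. Probe A_43_P12128 had a signal of 532, 933, 428 and 295 on replicates 1 to 4. Probe A_44_P101211 had 303, 1919, 480 and 165 on the same arrays. In signal, both probes were highest on replicate 2 and lowest on replicate 4. The second differed more between these arrays, being 6.34 times as bright on replicate 2 as on replicate 1, against 1.75 times for the first. On replicate 2 the first probe was below the spike-in limit and the second above it, so there the call for Mcl1 rests on A_44_P101211. Relative to the 75th percentile of each array, the first probe had a level of 1.60 ± 1.26 and the second 1.48 ± 0.39 (log2, SD, n = 4). The order of the arrays differed from that of the signal. Both levels were highest on replicate 4, at 2.70 and 1.87, and the first was lowest on replicate 2, at 0.13. The SD of a level, here and below, includes the shift of the 75th percentile between arrays and depended on the scaling.

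Bcl2a1, the survival gene under NF-kB control, had a signal of 353, 678, 264 and 271 on replicates 1 to 4 and was detected on each. It was above the spike-in limit on replicates 1 and 4 and below it on the others. Its level was 1.13 ± 1.38 (log2, SD, n = 4).

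Bcl2 is the founding survival gene of the family, and its single probe had a signal of 3.42 on replicate 1 and 5.13 on replicate 4, not well above background on either, though on replicate 4 it met the software's looser mark of a positive and significant signal. On replicate 2 the signal was 625 and on replicate 3 it was 131, and both were marked as well above background. The 2 pairs of arrays did not overlap, but the share of all genes with such a separation was not counted. The median gene spot also was brighter on replicates 2 and 3, at 542 and 133, than on replicates 1 and 4, at 13.5 and 7.37. On all 4 arrays the Bcl2 probe stayed below the spike-in limit. The spike-in that was dimmest over the 4 arrays had medians of 554 on replicate 2 and 3.49 on replicate 1. No level is given for Bcl2.

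Bcl2l1 encodes the survival protein Bcl-xL and, by splicing in human cells, a shorter form that favours death. Its 4 probes disagreed. Probe A_44_P548065 had a signal of 27.9, 501, 123 and 11.7 on replicates 1 to 4 and was detected on all but replicate 4, where it was nonetheless above the spike-in limit. Probe A_44_P1104090 had 3.41, 722, 151 and 3.50 and was detected on replicates 2 and 3. Probes A_44_P1085814 and A_64_P054730 were detected on replicate 2 only, at 197 and 145, with signals of 3.42 and 6.15 on replicate 1, 12.1 and 17.6 on replicate 3, and 3.53 and 4.77 on replicate 4. The call for Bcl2l1 on replicates 1 and 3 thus comes from 1 and 2 of its 4 probes. Probes A_44_P1085814 and A_64_P054730 are annotated to the same transcript, and each of the others to a different one. Which splice form each probe reads was not determined.

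**Figure D2:**
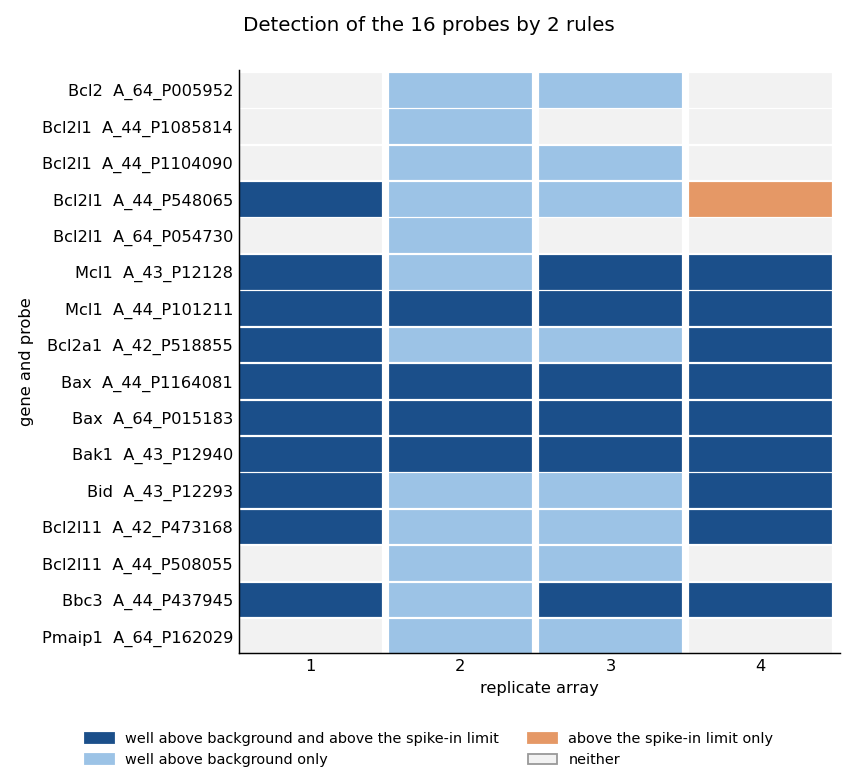
Each of the 16 member probes (rows) on each replicate array (columns), coloured by whether it was well above background and whether it passed the spike-in limit. The probes of Bax and Bak1 pass both on all 4 arrays, and A_44_P548065 of Bcl2l1 on replicate 4 is the only cell that passes the limit alone.

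Both effectors were detected by every probe on every array. Bax, which moves to mitochondria to form pores, was read by 2 probes of 2 spots each. Averaged over spots, probe A_44_P1164081 had a signal of 6119, 4040.0, 2611 and 2509 on replicates 1 to 4, and probe A_64_P015183 had 2125, 2449.7, 1369 and 999. Every value was above the spike-in limit, and both probes were lowest on replicate 4. The levels were 4.43 ± 1.84 and 3.30 ± 1.48 (log2, SD, n = 4). With each array scaled on probes detected on all arrays, the SD of A_44_P1164081 was 0.25. On replicate 1 the spots of A_44_P1164081 read 6322 and 5923, and those of A_64_P015183 read 2401 and 1880.2.

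Bak1, the effector that resides on mitochondria, had a signal of 1754, 1788, 996 and 615 on replicates 1 to 4. It was above the spike-in limit on all of them, by the least on replicate 2. Its level was 2.83 ± 1.48 (log2, SD, n = 4).

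Among the BH3-only genes, Bid, which links death receptors to mitochondria once caspase-8 has cut its protein, had a signal of 396, 240.2, 158 and 204 on replicates 1 to 4. It was detected on each array but was above the spike-in limit on replicates 1 and 4 only. On replicate 2 it lay under the median of every one of the 3 dim spike-ins. Its level was 0.51 ± 1.99 (log2, SD, n = 4).

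Bcl2l11 encodes Bim, a BH3-only protein that binds all of the main survival proteins. Probe A_42_P473168 had a signal of 112, 296, 111 and 55.5 on replicates 1 to 4 and was detected on each, with a level of -0.47 ± 0.94 (log2, SD, n = 4). It was above the spike-in limit on replicates 1 and 4. On replicates 2 and 3 it lay under the lowest median of the 3 dim spike-ins, which was 554 and 115. Probe A_44_P508055 had 13.3, 477, 153 and 4.31 and was detected on replicates 2 and 3 alone. The detection of Bcl2l11 on replicates 1 and 4 thus rests on 1 of its 2 probes.

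Bbc3, which encodes the BH3-only protein Puma, had a signal of 906, 639, 590.2 and 457 on replicates 1 to 4. It was detected on each array and exceeded the spike-in limit on all but replicate 2. Its level was 1.93 ± 1.80 (log2, SD, n = 4). Pmaip1, which encodes Noxa, a partner of the Mcl1 protein, had 3.38 on replicate 1 and 3.03 on replicate 4 and was not well above background on either. On replicates 2 and 3 it had 639 and 61.1, marked as well above background and below the spike-in limit. Like Bcl2, Pmaip1 is given no level.

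**Figure D3:**
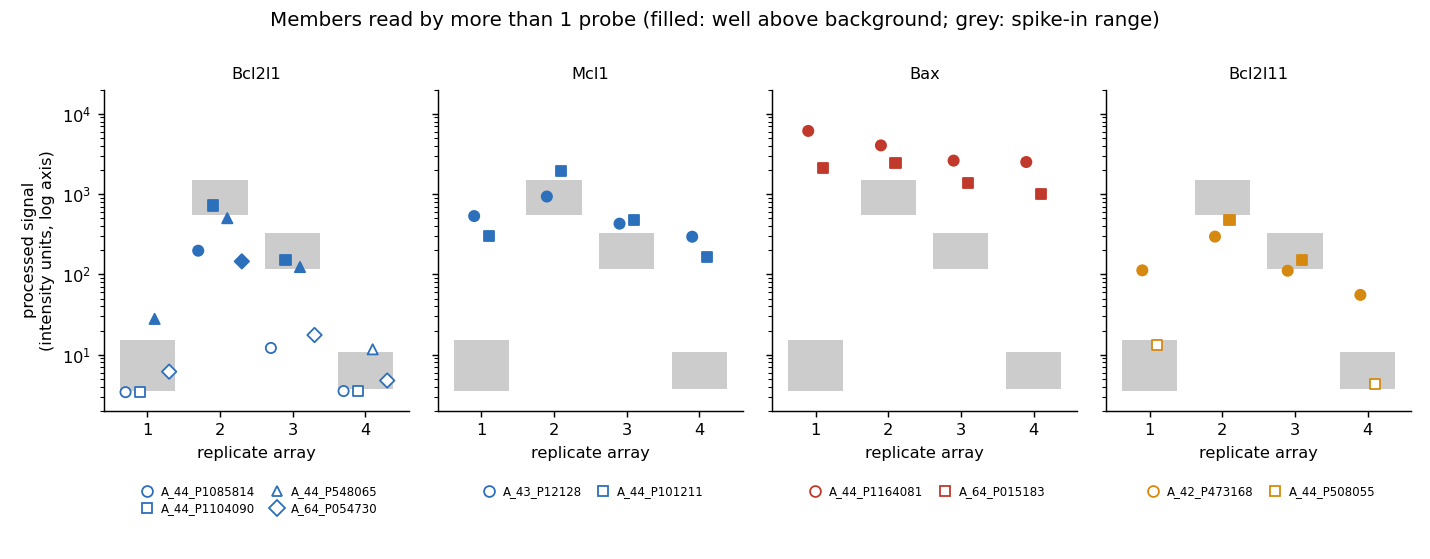
Processed signal (intensity units, log axis) of every probe of the 4 members read by more than 1 probe, on the 4 replicate arrays, with filled points well above background and grey boxes for the dim spike-ins. The probes of Bax and Mcl1 are filled throughout, while those of Bcl2l1 and Bcl2l11 disagree, on replicates 1 and 3 for Bcl2l1 and on replicates 1 and 4 for Bcl2l11.

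The spread between replicates was set beside other genes, since there is no second group to test against. Over 6904 genes whose probe of highest mean log2 signal was detected on every array, the SD had a median of 1.55 log2 units. For each member the comparison was the median SD of the 200 genes nearest in level. The SD of Bid, 1.99, exceeded its neighbours' 1.12, whereas Mcl1 (1.26 beside 1.53), Bak1 (1.48 beside 1.81), Bax (1.84 beside 1.94), Bcl2a1 (1.38 beside 1.45), Bbc3 (1.80 beside 1.63) and Bcl2l11 (0.94 beside 0.73) lay closer to theirs. Without replicate 2 the SD of Bbc3 was 1.11, and that of every other detected member was lower too, such as 1.38 for Bax and 1.52 for Bid. The SD over all genes without replicate 2 was not computed. These SDs depended on the scaling. When each array was scaled on probes detected on all arrays, the SD of the 7 detected members was between 0.25 for Bax and 0.72 for Bcl2l11, beside 0.43 for all genes, and that of Bid was 0.35.

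**Figure D4:**
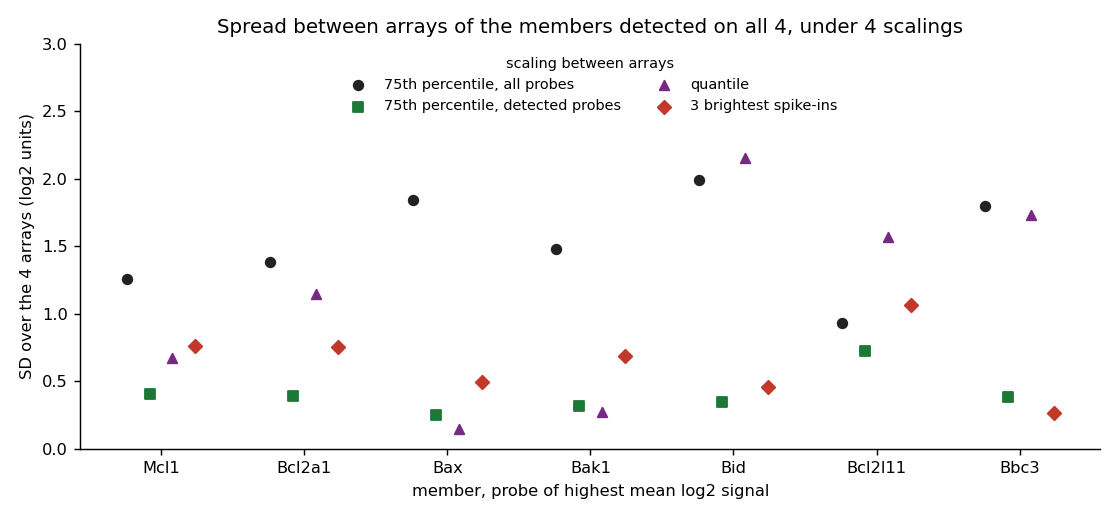
SD over the 4 arrays (log2 units) of the 7 members detected on all 4 arrays, under 4 ways of scaling the arrays, from the probe of highest mean log2 signal. Bax has an SD of 1.84 with the 75th percentile of all probes and 0.15 with quantile normalization, while Bid has 1.99 and 2.16. Under the other 2 scalings the 2 genes are closer. Bax has 0.25 and Bid 0.35 on detected probes, and 0.49 and 0.46 on the 3 brightest spike-ins.

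Replicates 1 and 4, on which the dimmest spike-in stayed at background, were also compared with each other. Over all 6904 genes the difference in level, replicate 1 minus replicate 4, had a median of -0.01 and ran from -0.57 at the 5th percentile to 0.55 at the 95th. It was -0.01 for Bid, 0.02 for Bbc3, 0.05 for Bcl2l11, -0.12 for Mcl1 and 0.32 for Bax. Bak1 was near the upper end at 0.54, and Bcl2a1, at -0.59, lay just below the lower. With quantile normalization the percentiles were -0.39 and 0.39, Bak1 at 0.44 lay outside them and Bcl2a1 lay within. With 1 array on each side these differences carry no test.

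The machinery on either side of the BCL2 family was followed through 6 lists. Of their 45 measured genes, 36 were detected on replicates 1 and 4, beside 45.9% of all genes. On all 4 arrays 35 were detected, beside 42.4%, and 11 passed the spike-in limit, beside 12.0%. The lists were drawn up with earlier results of these data known. Of 12 other BCL2 family genes, 6 were detected on all 4 arrays, a share close to the 42.4% of all genes, among them Bad and Bmf, both BH3-only, Bcl2l12 and Bcl2l14. Bad, which growth factor signalling holds inactive, had a signal of 2788, 1894, 1557 and 1299.7 on replicates 1 to 4. Bcl2l10, a survival-type relative, was detected on no array. The pore-forming relative Bok and the BH3-only genes Bik and Hrk, named after their values were seen, were detected on replicates 2 and 3 alone, 3 of 12 beside 27.7% of all genes.

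All 9 genes of the apoptosome and of mitochondrial factors were detected on all 4 arrays. For this list and those below, 42.4% of all genes were detected on all 4 arrays and 45.9% on replicates 1 and 4. Cycs, which encodes the cytochrome c that Bax and Bak1 release, had a signal of 2529, 1911, 626 and 1863 on replicates 1 to 4. Diablo, an antagonist of the inhibitors of apoptosis, had 3174, 2062, 1631 and 1697, and Htra2 and Aifm1 were detected as well. All 6 caspase genes were detected on replicates 1 and 4 and 5 of them on all 4 arrays. No caspase gene passed the spike-in limit on all 4 arrays, where 12.0% of all genes did, so 0 of 6 says little about caspases. Of 5 inhibitors of apoptosis, Xiap, Birc2 and Birc5 were detected on all 4 arrays, beside 42.4% of all genes. All 7 genes of the death receptor arm were, among them Fas, Fadd, Tnfrsf1a and Tradd. Casp8 encodes the protease that cuts Bid and had a signal of 148, 222, 111 and 68.8. Of 6 regulators of the members, 5 were detected on all 4 arrays, among them Ddit3, which induces Bcl2l11 in mouse cells, Fbxw7, part of a ligase that acts on the Mcl1 protein, and Rela, an NF-kB subunit. Ddit3 had a signal of 660.3, 1121, 122 and 247 on replicates 1 to 4.

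**Figure D5:**
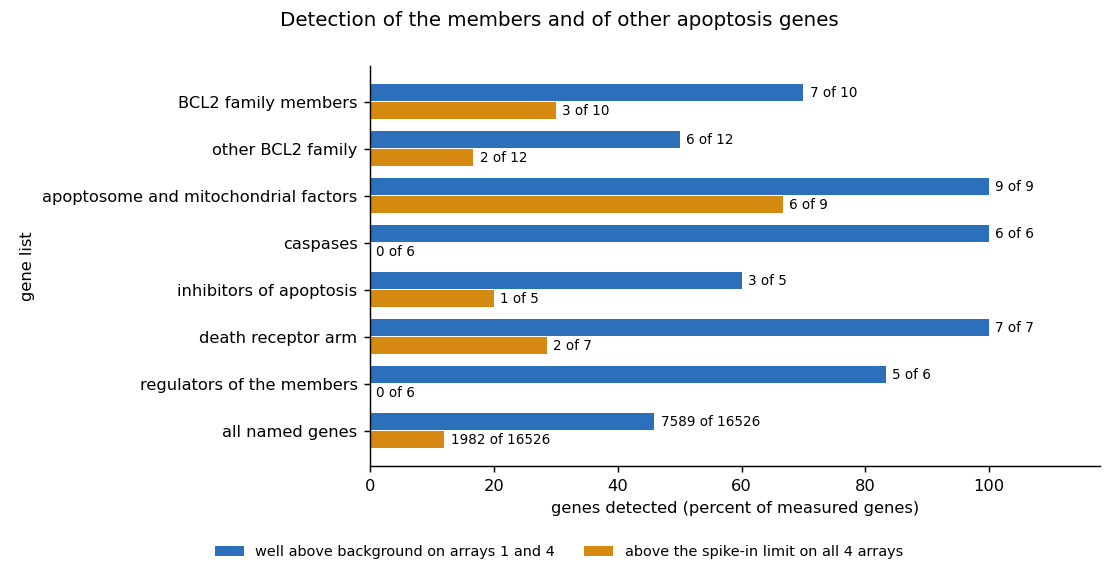
Percent of measured genes detected on replicates 1 and 4 (blue) and above the spike-in limit on all 4 arrays (orange), for the BCL2 family members, 6 lists of related genes and all named genes, with counts at the bars. The members stand at 7 of 10 and 3 of 10, and all named genes at 7589 and 1982 of 16526.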

How the data were processed

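RNA of exposed NR8383 cells was measured on 4 Agilent 1-colour (Cy3) arrays. The authors deposited intensity values as the scanner software gave them, Agilent Feature Extraction version 11.0.1.1 per the file headers. It takes off background and evens out trends inside an array. The headers record no normalization between arrays. The deposited table of the series equals the median spot intensity of the same arrays.

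Control spots and marked spots were left out and log2 values of repeated spots averaged. This lost 213 probes that had only marked spots on some array. A probe was detected where more than 50 percent of its spots had the well-above-background flag, and a gene where any probe was. A level is the log2 intensity of the probe of highest mean log2 signal minus the 75th percentile of the array. Levels of different genes were not compared, except to pick genes of like level for the spread. Accessions were matched without versions to the RefSeq table of GRCr8; the array design uses the older build rn4. Scripts ran in Python 3.11.15, normexp in limma 3.58.1, and the spread calculation was tested on simulated data. The number of arrays limits the precision.

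The members, lists and alternatives were chosen with earlier results of these data known. By the naming rule, all members and every probe are given, and the first 4 genes of a list whose chosen probe was detected on all arrays, or on none, except for some genes of the lists that are not reported here. Alternatives were the other detection flag, spike-in limits, the choice of probe, the background correction, the scaling, marked spots, the deposited table and leaving out each replicate.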

Additional observations from a re-analysis of the deposited data

How the results depend on the processing

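The count of 7 members detected on all 4 arrays was 8 with the looser flag (positive and significant), 7 by the probe of highest mean log2 signal alone and 6 when every probe had to pass. It fell to 3 with the dimmest spike-in plus 3 SD, and to 3 with the 95th percentile of the 3 dim spike-ins, a limit added after the data were seen. For the 45 related genes the count of 35 became 15 and 11 under these 2 limits, and 40, 32 and 26 under the flag and probe rules. On replicates 1 and 4 alone both limits passed 8 members. Leaving out each replicate in turn gave 7 to 8 members and 35 to 38 related genes, the higher counts without replicate 4, where Bcl2l1 was not detected. Of all named genes, 15.4% and 12.0% passed these 2 limits on all 4 arrays. By the probe of highest mean log2 signal, 6904 of 16526 genes were detected on all 4. The share of all genes was not counted under the looser flag or the every-probe rule. It was also not counted with a replicate left out, or for the limits on replicates 1 and 4. Nothing particular to the members is read from those counts. Levels near the 75th percentile changed sign with the arrays used: Bid was at 0.51 over 4 arrays, between -0.05 and 1.28 without 1 replicate and at 2.16 on replicates 1 and 4, and Bcl2l11 was at -0.47 and, on replicates 1 and 4, at 0.32. Of the levels of the 7 detected members, 0 moved by more than their SD with quantile normalization, normexp, the deposited table, marked spots kept or the mean of all probes. The 2 other reference points shift all members by the same amount. The SD is a wide yardstick here, since it reached 1.99 for Bid and depended on the scaling. The level of Bid changed sign, from 0.51 to -0.39, with quantile normalization. The spread of these 7 changed by over 1.5 times for 6 when scaled on detected probes, 6 on spike-ins, 4 by quantiles, 2 by the mean of all probes and 0 by normexp, and for 1 (Bbc3) without replicate 2. The median SD over all 6904 genes changed too, from 1.55 to 0.43 on detected probes, 0.73 on spike-ins and 0.86 by quantiles. The difference between replicates 1 and 4 moved by more than the scanner's error for 7 on spike-in scaling, 6 with normexp and 1 with the mean of all probes. Its median over all 6904 genes went from -0.01 to 0.47 on spike-in scaling and to 0.28 with normexp, so such moves are not particular to the members. No paired analysis was possible because there is 1 group. Signal of dim probes on replicates 2 and 3 limits every statement on Bcl2, Bcl2l1 and Pmaip1.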

Other observations

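Some related genes, named after their values were seen, shared the detection pattern of Bcl2l1, detected on replicates 1, 2 and 3 and not on replicate 4. How many of all named genes have this pattern was not counted. Of all genes, 52.2% were detected on replicate 1 and 45.9% on both replicates 1 and 4, so nothing particular to these genes is read from it. Bcl2l2, a survival member, had a signal of 33.1, 1179, 200.7 and 9.45 on replicates 1 to 4. Birc3, an inhibitor of apoptosis, had 17.8, 1284, 283 and 8.75, and Foxo3, a transcription factor that acts on Bcl2l11 and Bbc3, had 29.8, 1009, 189.7 and 9.69. On replicate 4 the values lie close to the spike-in limit of 10.7.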
